A study of Mus musculus with 15 samples.

Results

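The genes described here are 10 mouse genes of the interleukin 1, interleukin 6 and prostaglandin arms of inflammation. They are the ligands Il1a and Il1b, their antagonist Il1rn, the related ligands Il18 and Il33, the cytokines Tnf, Il6 and Lif, and the enzymes Ptgs2 and Ptges. They were found by symbol in the deposited expression table, which held all 10 of the 10 listed among 17271 genes. RNA had been measured by poly(A) RNA-seq in 15 mammary tumours of BALB/c mice with the genotype p53-NULL. The tumours belonged to 4 models, and 2151R was sampled 4 times, T11 once, 2225L 2 times and 2208L 8 times. All groups share the strain and the genotype, so no tumours with intact p53 are compared. The titles divide the 8 samples of 2208L into 4 named PBS, 3 named 3day nt and 1 named ROSEN. Each PBS title also begins with a code in DH and each 3day nt title with a code in KM. These codes differ between samples, and the labels do not say what they stand for. Of the 2151R samples, 2 carry NT in the title and the others carry codes that the labels do not explain. One 2225L sample is named T-Vivo and has the library prefix CP, and the other has the prefix ROSEN. The title of the series concerns chemotherapy with macrophage depletion, but no sample title names either treatment, and ages and hosts are not given. Nothing in the labels says that the samples of a group came from separate animals, so the p-values below measure the spread between these samples, which may be technical.

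Interleukin 1 alpha and beta are ligands of the same receptor, which signals through MyD88 and IRAK kinases to NF-kB, and the product of Il1rn occupies that receptor without signalling. Signals of this receptor and of TNF are known to induce Il6 and Ptgs2 in many cell types, and the enzymes encoded by Ptgs2 and Ptges act in turn to make prostaglandin E2 from arachidonic acid. In tumours these mediators can be made by the cancer cells as well as by macrophages, neutrophils and fibroblasts.

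All values are log2 expression relative to a reference level of the same gene that was set by the authors, so they can be compared between samples for a gene but not between genes. The epithelial gene Epcam was low in 2151R (mean -5.70 ± 0.54, SD, n = 4) and in T11 (-9.83) and lay between 0.00 and 1.37 in the other 10 samples. Trp53 transcripts lay between -0.29 and 0.29 in 14 samples and at 1.63 in 2225L replicate 1, which does not by itself check the genotype. Genes of skeletal muscle were high in 3 libraries, with a mean over 10 marker genes of 4.85 in 2151R replicate 3, 8.84 in 2208L replicate 6 and 8.27 in 2208L replicate 8, against 1.46 or lower in the other 12. In whole tumours fewer cells of a type and less RNA per cell cannot be told apart. Libraries of 2151R, 2208L PBS and 2208L 3day nt were each numbered in a range of their own, so a difference between these groups and one between library ranges cannot be told apart either. The same holds for the DH and KM title codes, which follow the PBS and 3day nt subsets. The 2225L and T11 libraries with the prefix CP were numbered outside these ranges. Differences within the prefix CP, given below, therefore also compare different library ranges.

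Stretches of 250 bases before the annotated start are shown for 5 of the genes. Ptgs2 with Ptges, and Il1b with Lif, were chosen because each pair was called in the same direction in 2151R against 2208L. Il6 was chosen as the member called between the 2208L subsets. Il1rn and Tnf were also called lower in 2151R than in 2208L, and their windows are not shown. The stretches were read from RefSeq's GRCm38.p6 and run 5′ to 3′ on the strand of the gene. The Ptges window lies at a start inside the annotated span of the gene. Capitals mark matches on either strand to the 10-base NF-kB consensus, C/EBP (TTNNGNAAT), AP-1 (TGANTCA), the CRE half-site (TGACG) or a TATA box (TATAAA).
Il1b, chr2:129371140-129371389, minus strand: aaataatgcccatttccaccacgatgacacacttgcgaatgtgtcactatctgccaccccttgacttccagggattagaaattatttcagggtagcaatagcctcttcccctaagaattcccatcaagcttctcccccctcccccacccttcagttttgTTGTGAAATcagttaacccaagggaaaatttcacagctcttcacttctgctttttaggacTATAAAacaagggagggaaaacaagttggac
Lif, chr11:4257318-4257567, plus strand: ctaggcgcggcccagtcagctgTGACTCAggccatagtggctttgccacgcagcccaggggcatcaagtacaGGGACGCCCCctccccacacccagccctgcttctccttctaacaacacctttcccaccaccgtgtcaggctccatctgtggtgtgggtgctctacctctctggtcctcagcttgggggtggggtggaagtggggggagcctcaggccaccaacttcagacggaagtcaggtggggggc
Il6, chr5:30012864-30013113, plus strand: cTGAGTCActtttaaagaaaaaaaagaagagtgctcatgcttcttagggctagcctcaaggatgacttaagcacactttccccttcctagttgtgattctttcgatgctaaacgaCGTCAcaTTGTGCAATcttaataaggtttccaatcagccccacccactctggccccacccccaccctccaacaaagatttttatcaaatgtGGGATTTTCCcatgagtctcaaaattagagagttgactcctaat
Ptgs2, chr1:150099781-150100030, plus strand: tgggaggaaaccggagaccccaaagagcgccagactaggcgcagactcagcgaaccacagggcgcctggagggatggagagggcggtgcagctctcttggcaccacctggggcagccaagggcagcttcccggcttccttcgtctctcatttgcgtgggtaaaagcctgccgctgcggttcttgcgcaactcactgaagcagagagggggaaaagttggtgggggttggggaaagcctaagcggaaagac
Ptges, chr2:30903298-30903547, minus strand: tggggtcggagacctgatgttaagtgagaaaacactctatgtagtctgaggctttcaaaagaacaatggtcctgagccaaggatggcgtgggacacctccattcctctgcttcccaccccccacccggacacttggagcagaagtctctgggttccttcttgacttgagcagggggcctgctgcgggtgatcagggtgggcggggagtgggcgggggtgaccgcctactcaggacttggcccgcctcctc
Il1b held a C/EBP match and a TATA box. Lif held an AP-1 and an NF-kB match. Il6 held an AP-1, a CRE half-site, a C/EBP and an NF-kB match, in that order towards the start. No exact match to any of the 5 motifs was found in the letters of the Ptgs2 and Ptges windows. Near matches and bases outside the windows were not searched, so these promoters may still hold such sites. Of the 13 windows of all 10 members, 2 held the NF-kB motif (Il6 and Lif) and 3 the C/EBP motif. The AP-1 motif was in 4 of the 13, the CRE half-site in 1 and the TATA box in 6. Among 32851 windows of the same length in the table, 7.25% held the NF-kB motif, 10.2% C/EBP, 6.75% AP-1, 17.8% the CRE half-site and 12.4% the TATA box. The matches are a description of the letters, and binding was not measured.

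Each model had its own combination of these genes, where large shares of all genes also differed, as given below. Tumours of 2151R had high Ptges and Ptgs2 with low Lif, Il1b and Tnf beside 2208L. Tumours of 2225L had low Il1b, Il1rn, Lif and Ptgs2, with Ptges between the levels of 2151R and 2208L. The single T11 sample held the highest Il6, Il18 and Il1b values of all 15 samples. For Il1b the lead was small, at 1.20 in T11 beside 1.19 in 2208L replicate 2. T11 lay outside the range of 2208L for 57.5% of all genes, in either direction. The members varied more than most genes, with an SD over the 15 samples from 0.72 for Tnf to 2.15 for Ptges, where the median over all genes was 0.69.

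**Figure D1:**
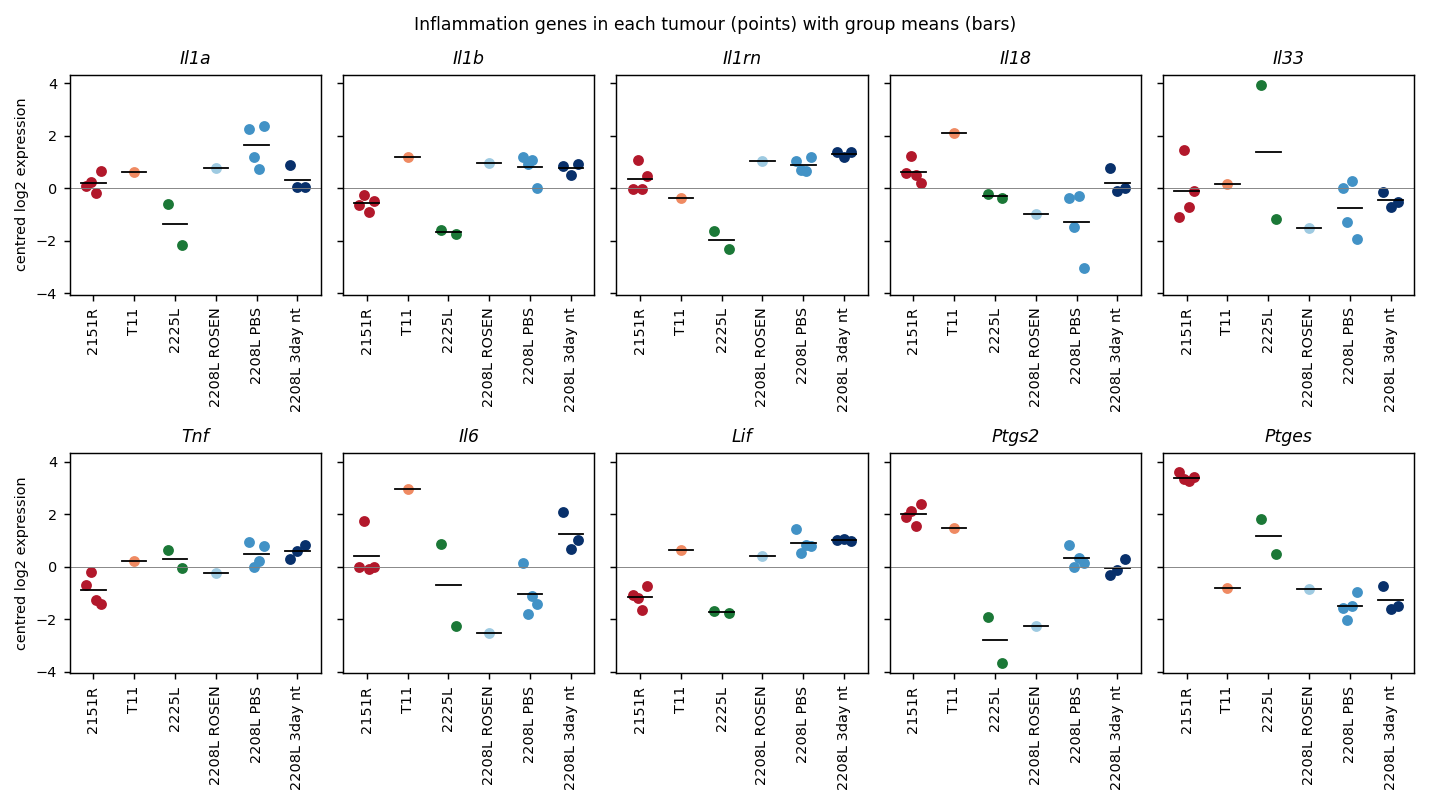
Centred log2 expression of the 10 genes in each of the 15 tumours (points), by model and by 2208L subset, with bars at the group means. The 4 points of 2151R lie at 3.25 to 3.59 for Ptges, above every other tumour, and the 2 points of 2225L lie lowest for Il1b and Il1rn.

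In 2151R against 2208L, 2 of the 10 genes were called higher and 4 lower (limma, Benjamini-Hochberg adjusted p under 0.05 over all 17271 genes). The background is high, since 26.1% of all genes were called higher and 22.7% lower in that comparison. Between 2225L and 2208L, 1 member was called higher and 5 lower, beside 15.6% and 17.3% of all genes. For 2225L against 2151R the counts were 1 higher and 4 lower, beside 22.8% and 25.8% of all genes. The members' median difference was -0.04 in the first of these comparisons, -1.37 in the second and -1.10 in the third, where the medians over all genes were 0.10, -0.04 and -0.10. The first changed sign in several alternatives. It was 0.17 without 2151R replicate 1, 0.13 without 2151R replicate 3 and -0.38 without 2151R replicate 2. Over all alternatives it ran from -0.48, against 2208L 3day nt alone, to 0.25, without the 3 libraries high in muscle genes. The second was -2.22 without 2225L replicate 1, -0.70 without 2225L replicate 2 and -0.83 with the library prefix as a covariate. The third was -1.76 without 2225L replicate 1, -0.82 without 2225L replicate 2 and -0.79 under quantile normalization. These 3 comparisons share groups of samples and are not independent of each other.

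**Figure D2:**
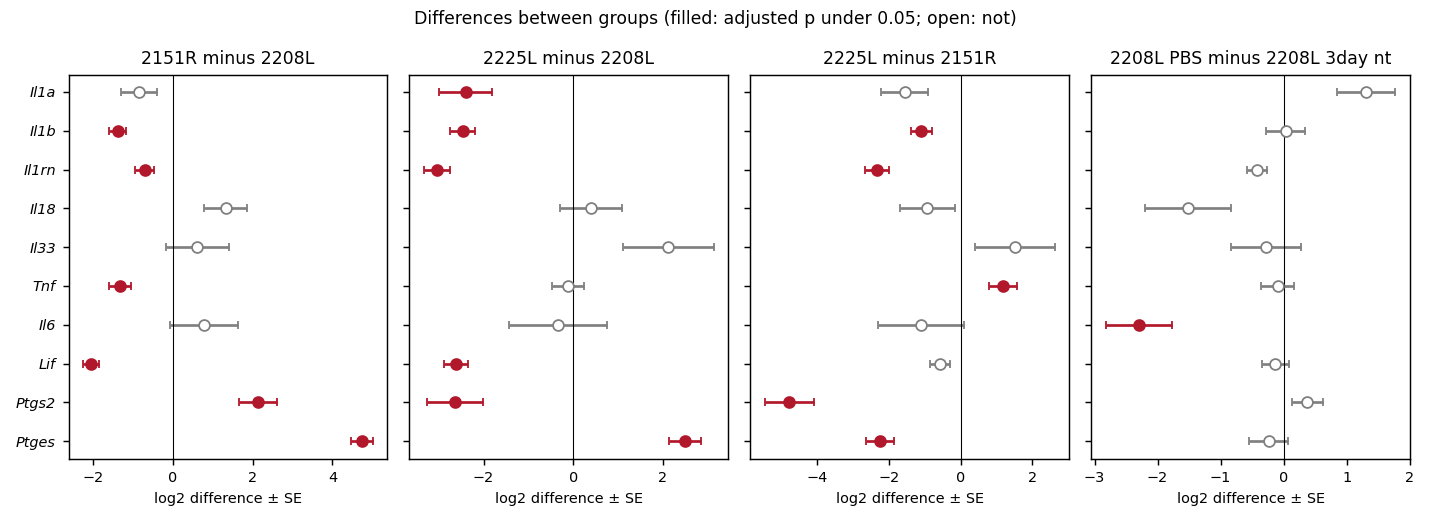
Log2 differences between groups for each of the 10 genes, with bars for the standard error from limma; filled points were called at an adjusted p under 0.05 and open points were not. In 2151R minus 2208L, Ptges lies farthest to the right at 4.74 and Lif farthest to the left at -2.04, and in the 2208L subsets Il6 alone is filled, at -2.30.

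Il1b, the secreted ligand that caspase 1 cuts to its active form, was highest in 2208L and T11 and lowest in 2225L. It stood at -0.64, -0.23, -0.90 and -0.47 in the 4 tumours of 2151R, at 1.20 in T11 and at -1.58 and -1.74 in 2225L. The 8 tumours of 2208L ran from 0.00 through a median of 0.94 to 1.19. No tumour of 2151R or of 2225L reached the range of 2208L, and both of 2225L lay under all 4 of 2151R. The difference was -1.37 between 2151R and 2208L (SE 0.21, adjusted p = 0.000127) and -2.47 between 2225L and 2208L (SE 0.27, adjusted p = 2.25e-05). Between 2225L and 2151R it was -1.10 (SE 0.30, adjusted p = 0.00836). That last call was lost under quantile normalization (-0.66, adjusted p = 0.0638) and without 2225L replicate 2 (-1.02, adjusted p = 0.0587). Here and below, leaving out a tumour of 2225L leaves 1, which the fit takes to vary like the other groups. An antisense gene, Il1bos, overlaps Il1b (chromosome 2, 129364569 to 129371164, minus strand, in GRCm38.p6 as for all positions here), and whether the counting used strand is not given in the sources used here.

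Il1a, the ligand that is also active in its uncut form and is released from damaged cells, had an SD of 0.88 within 2208L (n = 8), where that of Il1b was 0.38. It stood at 0.09, 0.23, -0.16 and 0.64 in 2151R, at 0.62 in T11 and at -0.58 and -2.15 in 2225L. In 2208L it ran from 0.05 through a median of 0.82 to 2.36. The ranges of 2151R and 2208L overlapped, while both 2225L tumours lay under all others. A difference of -2.40 was called between 2225L and 2208L (SE 0.59, adjusted p = 0.00726). It was not called without 2225L replicate 2 (-1.61, adjusted p = 0.140) or with sample weights (-2.51, adjusted p = 0.118). The other model differences of Il1a, -0.84 for 2151R minus 2208L (adjusted p = 0.147) and -1.56 for 2225L minus 2151R (adjusted p = 0.0606), did not pass, although without 2225L replicate 1 the latter did (-2.35, adjusted p = 0.0281). The former was -1.44 against 2208L PBS alone (adjusted p = 0.0170), -0.13 against 3day nt alone (adjusted p = 0.841) and -0.77 with sample weights (adjusted p = 0.0489). Gm14023 overlaps Il1a (chromosome 2, 129299609 to 129310186, minus strand) on the other strand, and without strand in the counting reads of the pair cannot be told apart.

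Il1rn, the secreted receptor antagonist (chromosome 2, 24336860 to 24351491, plus strand), was lowest in 2225L. Its values were -0.01, 1.08, -0.03 and 0.45 in 2151R, -0.36 in T11, and -1.62 and -2.30 in 2225L. Tumours of 2208L lay between 0.65 and 1.40 with a median of 1.11. Both 2225L tumours were under every other sample, and 1 tumour of 2151R, replicate 2, reached into the range of 2208L. The difference from 2208L was -3.03 in 2225L (SE 0.30, adjusted p = 8.71e-06), and 2225L minus 2151R was -2.33 (SE 0.33, adjusted p = 6.65e-05). For 2151R minus 2208L it was smaller, -0.70 (SE 0.23, adjusted p = 0.0225). The latter call was lost without 2151R replicate 1 (-0.57, adjusted p = 0.0884), without 2151R replicate 3 (-0.56, adjusted p = 0.0867), without the 3 libraries high in muscle genes (-0.46, adjusted p = 0.179) and against 2208L PBS alone (-0.52, adjusted p = 0.110).

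The order of the 3 replicated models in Il1b, with 2208L above 2151R and 2151R above 2225L, was also that of the group medians of a neutrophil marker mean. The mean over the 8 neutrophil genes of 10 listed that were in the table lay between -1.30 and -0.27 in 2151R, between -2.33 and -1.76 in 2225L, at -0.46 in T11 and between -0.55 and 2.68 in 2208L. Of these 8 genes, 1 was called higher and 2 lower in 2225L against 2151R, beside 22.8% and 25.8% of all genes, and 5 were not called. Against 2208L, 0 were higher and 4 lower in 2151R, beside 26.1% and 22.7% of all genes. In 2225L, 0 were higher and 5 lower than in 2208L, beside 15.6% and 17.3%. S100a8 averaged -1.27 in 2151R, -1.96 in 2225L and 1.24 in 2208L, and Cxcr2 0.30, -2.77 and 1.56. Macrophage markers (10 of 10) were also lowest in 2225L, at -1.82 and -0.79, beside 0.31 to 0.75 in 2151R and -0.45 to 0.30 in 2208L, and highest in T11. A centred value does not show whether a marker is absent, and the part of either cell type in the results was not tested.

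Among 16 receptors and signalling genes of the interleukin 1 family, 6 were called higher and 4 lower in 2151R against 2208L. As for every list below, the all-gene shares to read this against are 26.1% and 22.7% here, 15.6% and 17.3% for 2225L against 2208L, and 22.8% and 25.8% for 2225L against 2151R. Il1rl1, the receptor of the Il33 product, was 2.37 higher (SE 0.58, adjusted p = 0.00453), and Il18r1, a chain of the interleukin 18 receptor, differed by -2.51 (SE 0.53, adjusted p = 0.00152). In 2225L, 1 was higher and 6 lower than in 2208L, led by both chains of the interleukin 18 receptor, Il18rap (-4.38, SE 0.45, adjusted p = 1.23e-05) and Il18r1 (-3.50, SE 0.68, adjusted p = 0.00174). Against 2151R, 1 was higher and 8 lower in 2225L, with Il1rl1 (-4.31) and Il18rap (-3.69) farthest apart. Of the 7 genes of inflammasomes and processing, 4 were higher and 1 lower in 2151R against 2208L. The gene that was lower was Casp1, the caspase that cuts interleukins 1 beta and 18, with a difference of -1.91 (SE 0.25, adjusted p = 3.44e-05), while Nlrc4, a sensor that recruits it, was 1.62 higher (SE 0.34, adjusted p = 0.00153). Casp1 was lower in 2225L than in 2208L as well (-2.01, SE 0.33, adjusted p = 0.000472), as was the sensor Nlrp3 (-1.88, SE 0.26, adjusted p = 0.000122). In 2225L, 1 of the 7 was higher and 3 lower against 2208L, and the same counts held against 2151R, where Nlrp3 (-2.75) and the pore-forming Gsdmd (-2.12) led.

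Il18, which is processed by caspase 1 and induces interferon gamma, was highest in T11. Its values were 0.60, 1.23, 0.52 and 0.22 in 2151R, 2.12 in T11, and -0.22 and -0.37 in 2225L. In 2208L it ran from -3.03 through a median of -0.34 to 0.76. Tumours of 2151R lay above the median of 2208L, but the ranges overlapped. The difference of 1.33 between 2151R and 2208L did not pass (SE 0.54, adjusted p = 0.0574). It did without 2208L replicate 5, the tumour at -3.03 (0.99, adjusted p = 0.0359), without 2208L replicate 6 (1.53, adjusted p = 0.0236), and against 2208L PBS alone (1.93, adjusted p = 0.00964). Against 2208L 3day nt alone it was 0.42 (adjusted p = 0.558), and among samples titled NT, nt or PBS 1.01 (adjusted p = 0.379). It also passed with sample weights (1.16, adjusted p = 0.00812), with the muscle covariate (1.61, adjusted p = 0.0189) and without the muscle-high libraries (1.72, adjusted p = 0.0338). The gene (chromosome 9, 50554700 to 50581841, plus strand) overlaps Bco2, which has its own row in the table, and Tex12 on the other strand.

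Il33, a nuclear cytokine that epithelial and stromal cells release on damage (chromosome 19, 29925113 to 29960718, plus strand), split the 2 tumours of 2225L. It stood at 3.96 in replicate 1, the highest of all 15 samples, and at -1.17 in replicate 2. In 2151R it was -1.07, 1.47, -0.73 and -0.12, in T11 0.19, and in 2208L it ran from -1.93 through -0.60 to 0.27. Apart from the first 2225L tumour and replicate 2 of 2151R, all samples lay at 0.27 or lower. No comparison of models was called for Il33, with 2.12 for 2225L minus 2208L (SE 1.01, adjusted p = 0.128) 1.51 for 2225L minus 2151R (adjusted p = 0.281) and 0.61 for 2151R minus 2208L (adjusted p = 0.540). With the tumour at 3.96 as the only one of 2225L the first was 4.68 and the second 4.07, and with the other alone they were -0.44 and -1.05. With the library prefix as a covariate the first of these was 3.04 (adjusted p = 0.0220), while within the prefix CP it was 4.57 and within ROSEN 0.36, each from 1 tumour of 2225L.

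Tnf, the cytokine that signals through Tnfrsf1a and Tnfrsf1b (chromosome 17, 35199367 to 35202007, minus strand), was lowest in 2151R and varied least of the 10 genes. It stood at -0.68, -0.19, -1.25 and -1.41 in 2151R, at 0.23 in T11, and at 0.65 and -0.04 in 2225L. In 2208L it ran from -0.26 through 0.46 to 0.93. One tumour of 2151R, replicate 2, lay inside the range of 2208L and the other 3 lay under it. The difference between 2151R and 2208L was -1.31 (SE 0.28, adjusted p = 0.00166), and 2225L minus 2151R was 1.19 (SE 0.39, adjusted p = 0.0242). The latter call was lost in 6 alternatives, among them without 2225L replicate 1 (0.84, adjusted p = 0.186), 2151R replicate 3 (1.06, adjusted p = 0.0557) or 2151R replicate 4 (1.01, adjusted p = 0.0609). Of 15 genes of TNF receptors and NF-kB, 6 were higher and 2 lower in 2151R against 2208L, led by the adaptor Traf1 (3.11, SE 0.32, adjusted p = 3.36e-06) and by Nfkb1, an NF-kB subunit (2.02, SE 0.16, adjusted p = 2.59e-07). In 2225L, 1 was higher and 5 lower than in 2208L, with Tnfrsf1b (-1.76, not called without 2225L replicate 1) and Adam17, the protease that sheds TNF (-1.34), farthest apart, and 0 were higher and 8 lower than in 2151R, with Traf1 (-2.45) and Nfkb1 (-2.07) leading.

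Lif, which acts through Lifr and gp130 (chromosome 11, 4257568 to 4272514, plus strand), separated 2208L and T11 from the other models. Its values were -1.08, -1.18, -1.64 and -0.72 in 2151R, 0.62 in T11, and -1.68 and -1.78 in 2225L. All 8 tumours of 2208L were positive, from 0.40 through 0.91 to 1.43. No tumour of 2151R or 2225L overlapped with them. The difference from 2208L was -2.04 in 2151R (SE 0.20, adjusted p = 2.57e-06) and -2.61 in 2225L (SE 0.26, adjusted p = 1.08e-05). Between 2225L and 2151R it was -0.57 (adjusted p = 0.115), which passed only without 2151R replicate 3 (-0.74, adjusted p = 0.0498).

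Il6, the ligand that binds Il6ra and gp130 (chromosome 5, 30013114 to 30019975, plus strand), overlapped between all 3 models with replicates. It stood at 0.00, 1.73, -0.10 and -0.01 in 2151R, at 2.96 in T11, and at 0.86 and -2.27 in 2225L. In 2208L it ran from -2.53 through -0.50 to 2.07. T11 lay above all other samples, and the tumours of 2225L and 2208L spanned most of the range. No model comparison was called, with 0.78 for 2151R minus 2208L (SE 0.85, adjusted p = 0.470), -0.33 for 2225L minus 2208L (SE 1.09, adjusted p = 0.845) and -1.11 for 2225L minus 2151R (SE 1.20, adjusted p = 0.467).

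Other ligands and receptors of this family were called between the models. Of 14 genes, 6 were called higher and 4 lower in 2151R against 2208L. Clcf1, a further ligand that signals through gp130, was 3.31 higher (SE 0.40, adjusted p = 1.46e-05), and Osmr, the oncostatin M receptor, differed by -2.71 (SE 0.28, adjusted p = 3.24e-06). In 2225L, 0 were higher and 8 lower than in 2208L, led by Osmr (-3.07, SE 0.36, adjusted p = 3.55e-05) and Clcf1 (-2.28, SE 0.51, adjusted p = 0.00429). Clcf1 was not called without 2225L replicate 2 (-1.67, adjusted p = 0.0864) or with sample weights (-2.21, adjusted p = 0.0749). Against 2151R, 2 were higher and 7 lower in 2225L, with Clcf1 at -5.60 and Il11, another gp130 ligand, at -3.76. Of 8 response genes that interleukins 1 and 6 are known to induce, 2 were higher and 5 lower in 2151R against 2208L. Lcn2, an iron-binding protein of neutrophils and epithelium, differed by -7.38 (SE 0.34, adjusted p = 1.15e-09) and Cebpb, a C/EBP factor, by -3.37 (SE 0.41, adjusted p = 1.59e-05). In 2225L, 0 of the 8 were higher and 5 lower than in 2208L, with Lcn2 (-2.68) and Junb (-2.30) leading, and 4 were higher and 3 lower than in 2151R, with Lcn2 (4.71) and Saa3, a serum amyloid (-2.86), farthest apart. The adjusted p of Saa3 was 0.0483, and it was no longer called when any of 2151R replicates 2 to 4 or 2225L replicate 1 was left out (adjusted p from 0.0655 to 0.418), or under median centring or quantile normalization of the samples (0.0551 and 0.0665).

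Ptgs2, the inducible cyclooxygenase (chromosome 1, 150100031 to 150108234, plus strand), was highest in 2151R and lowest in 2225L. It stood at 1.91, 2.14, 1.56 and 2.40 in 2151R, at 1.49 in T11, and at -1.90 and -3.66 in 2225L. In 2208L it was -2.24 in replicate 1, the ROSEN sample, and between -0.33 and 0.83 in the other 7. All 4 tumours of 2151R lay above all of 2208L, and 1 tumour of 2225L lay between the ROSEN sample and the other 7 of 2208L. The difference was 2.14 for 2151R minus 2208L (SE 0.48, adjusted p = 0.00247), -2.64 for 2225L minus 2208L (SE 0.62, adjusted p = 0.00574) and -4.78 for 2225L minus 2151R (SE 0.68, adjusted p = 8.21e-05). Without 2225L replicate 2 the second of these was no longer called (-1.76, adjusted p = 0.123). With the library prefix as a covariate it was -1.83 (adjusted p = 0.000921), and within the prefixes CP and ROSEN it was -2.06 and -1.42.

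Ptges, the inducible synthase that converts the product of cyclooxygenase to prostaglandin E2 (chromosome 2, 30889471 to 30931020, minus strand), had the largest SD of the 10 genes over the 15 samples. Its values were 3.59, 3.35, 3.25 and 3.40 in 2151R, -0.79 in T11, and 1.84 and 0.48 in 2225L. In 2208L it ran from -2.03 through -1.48 to -0.73. The 3 models with replicates did not overlap, with 2151R highest, 2225L between and 2208L lowest. The difference was 4.74 for 2151R minus 2208L (SE 0.28, adjusted p = 1.26e-08), 2.50 for 2225L minus 2208L (SE 0.36, adjusted p = 0.000182) and -2.24 for 2225L minus 2151R (SE 0.39, adjusted p = 0.000416). Within the prefixes CP and ROSEN, 2225L minus 2208L was 3.25 and 1.31. A processed pseudogene, Gm13400, lies within Ptges on the same strand.

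**Figure D3:**
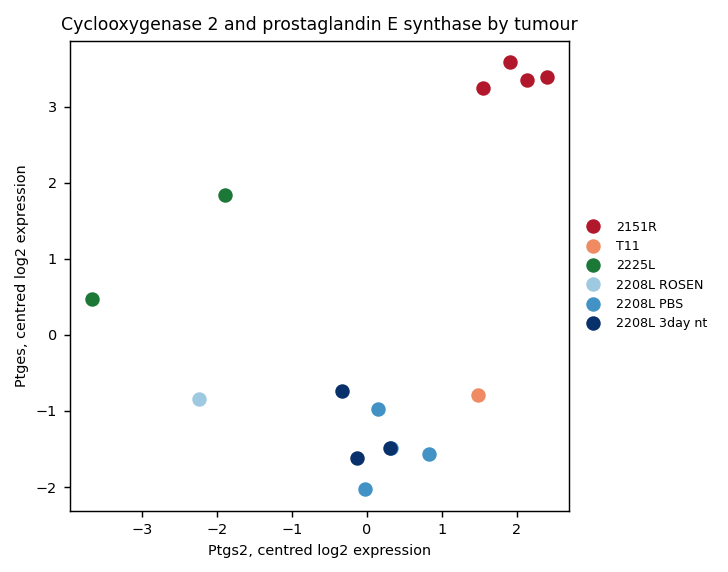
Ptges against Ptgs2, both in centred log2 expression, with 1 point per tumour coloured by model and 2208L subset. The 4 tumours of 2151R alone are high in both, T11 has high Ptgs2 (1.49) with low Ptges (-0.79), and the 2 of 2225L have low Ptgs2 with Ptges at 0.48 and 1.84.

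Mast cells, macrophages and fibroblasts can express both enzymes. The mean over the 5 mast cell genes of 6 listed that were in the table lay between 2.55 and 3.18 in 2151R, between -1.39 and -0.32 in 2225L, between -3.37 and 1.70 in 2208L, and at -1.98 in T11. For 7 of 7 fibroblast genes it lay between 0.68 and 1.71 in 2151R, between -0.88 and -0.67 in 2225L, between -2.13 and 0.97 in 2208L and at 0.80 in T11. In 2151R against 2208L, 4 of the 5 mast cell genes were called higher and 1 lower. Of the 7 fibroblast genes, 4 were higher and 0 lower, beside 26.1% and 22.7% of all genes. The part of these cell types in the levels of Ptgs2 and Ptges was not tested.

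Of 12 further genes of prostanoid synthesis, transport and breakdown, 4 were called higher and 4 lower in 2151R against 2208L. Cbr1, a carbonyl reductase that acts on prostaglandin E2, differed by -2.07 (SE 0.23, adjusted p = 6.24e-06), and Ptgds, a prostaglandin D synthase, by -1.85 (SE 0.60, adjusted p = 0.0215), which was not called without 2151R replicate 2 (-1.45, adjusted p = 0.0848) or against 3day nt alone (-0.66, adjusted p = 0.334). In 2225L, 2 were higher and 3 lower than in 2208L. Ptgds stood at 6.89 and 8.77 in 2225L and no higher than 2.27 in any other tumour, 6.64 above 2208L (SE 0.78, adjusted p = 3.62e-05) and 8.49 above 2151R (SE 0.85, adjusted p = 3.66e-06). The prostaglandin carrier Slco2a1 differed by -2.46 between 2225L and 2208L (SE 0.31, adjusted p = 6.19e-05). Against 2151R, 3 of the 12 were higher and 5 lower in 2225L, with Cbr1 at 3.61 beside Ptgds.

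Receptors also differed between the models, and 7 of the 9 listed were in the table. In 2151R, 3 were higher and 2 lower than in 2208L. Ptger3, a receptor of prostaglandin E2, was 3.31 higher (SE 0.85, adjusted p = 0.00551), and Ptgfr, the receptor of prostaglandin F2 alpha, 2.93 higher (SE 0.87, adjusted p = 0.0136). Against 3day nt alone neither was called, at 2.05 (adjusted p = 0.0832) and 1.43 (adjusted p = 0.180). In 2225L, 0 were higher and 2 lower than in 2208L. Those were Ptger2 (-3.55, SE 0.24, adjusted p = 3.19e-07) and Ptger4 (-2.66, SE 0.24, adjusted p = 4.98e-06), both receptors of prostaglandin E2 that raise cyclic AMP. Against 2151R, 0 were higher and 3 lower in 2225L, with Ptgfr at -5.05 and Ptger2 at -2.42. Over the 7 pathway lists together, 31 of the 79 measured genes were called higher and 22 lower in 2151R against 2208L, beside 26.1% and 22.7% of all genes, with a median difference of 0.00. For 2225L the counts were 5 higher and 32 lower against 2208L, beside 15.6% and 17.3% of all genes, and 11 higher and 37 lower against 2151R, beside 22.8% and 25.8%, with median differences of -0.63 and -0.98.

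**Figure D4:**
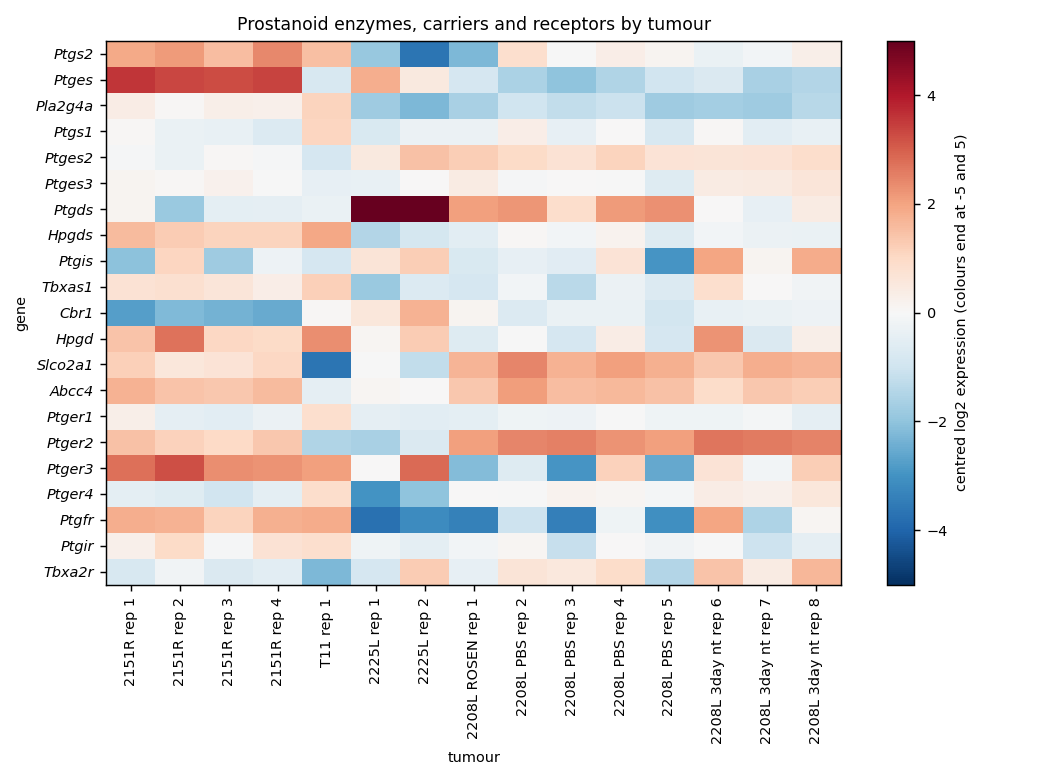
Centred log2 expression of Ptgs2, Ptges and 19 other prostanoid genes (rows) in the 15 tumours (columns), with colours that end at -5 and 5. Ptges is red in 2151R and 2225L, Ptgds is darkest in 2225L, and Ptger2 is red in 2208L and 2151R and blue in T11 and 2225L.

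Within 2208L, the PBS and 3day nt tumours differed in Il6 and in no other member by the test. Il6 stood at 0.13, -1.79, -1.13 and -1.42 in the 4 PBS tumours and at 2.07, 0.66 and 1.01 in the 3 tumours named 3day nt. The subsets did not overlap, and the ROSEN tumour lay under both at -2.53. The difference, PBS minus 3day nt, was -2.30 (limma on these 7 samples, SE 0.53, adjusted p = 0.0188). So 0 of the 10 members were called higher in PBS and 1 lower, beside 17.4% and 16.5% of all genes. Muscle genes were high in 2 of the 3 tumours named 3day nt, and with those libraries left out the difference was -1.71 (adjusted p = 0.291). With the muscle mean as a covariate it was -1.47 (adjusted p = 0.301), without replicate 6 -1.89 (adjusted p = 0.0634) and without replicate 8 -2.42 (adjusted p = 0.0588). All genes called in this comparison numbered 5864, 98 with those 2 libraries left out and 110 with the covariate. Leaving both out leaves 1 tumour of 3day nt, taken to vary like the PBS tumours, so the fewer samples and the muscle genes cannot be told apart in the lower count. Some other marker means had lower medians in PBS, with ranges that overlapped between the subsets. The mean of 6 of 6 adipocyte genes lay between -4.25 and 1.38 in PBS and between 1.20 and 1.96 in 3day nt. For 5 of 6 mast cell genes the ranges were -3.37 to 0.43 and 0.04 to 1.70, and for 7 of 7 T cell genes -2.24 to 0.47 and 0.40 to 1.12. Of these genes, 1 of adipocytes, 1 of mast cells and 3 of T cells were called lower in PBS. In each list 0 were called higher, beside 16.5% lower and 17.4% higher of all genes. The part of these cells in the Il6 difference was not tested.

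**Figure D5:**
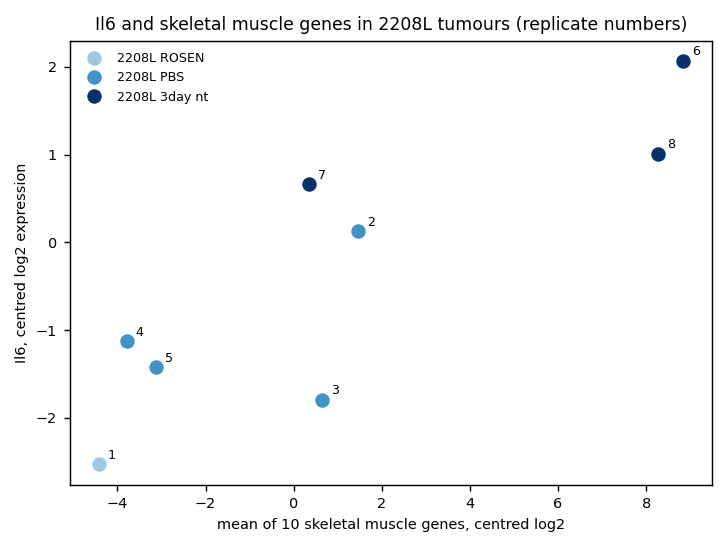
Il6 against the mean of 10 skeletal muscle genes, both in centred log2 units, in the 8 tumours of 2208L (points, with replicate numbers). Replicates 6 and 8, both 3day nt, lie at 8.84 and 8.27 on the muscle axis, and replicate 7, the third 3day nt tumour, lies at 0.35 with Il6 at 0.66, above the 4 PBS tumours.

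The remaining members were not called between the subsets. Il1a was 2.27, 1.18, 0.74 and 2.36 in PBS and 0.87, 0.06 and 0.05 in 3day nt, a difference of 1.31 with a small overlap (SE 0.46, adjusted p = 0.0674) that passed without replicate 4 (1.61, adjusted p = 0.0358). Il1rn was 1.04, 0.71, 0.65 and 1.18 in PBS and 1.40, 1.19 and 1.37 in 3day nt, without overlap, at -0.42 (SE 0.16, adjusted p = 0.0848), and passed without replicate 5 (-0.52, adjusted p = 0.0329). Il18 was -0.37, -1.46, -0.30 and -3.03 in PBS and 0.76, -0.09 and 0.00 in 3day nt, also without overlap, at -1.52 (SE 0.68, adjusted p = 0.126). For Ptgs2 the difference was 0.37 (adjusted p = 0.274), for Ptges -0.24 (adjusted p = 0.572), for Lif -0.13 (adjusted p = 0.643) and for Il33 -0.28 (adjusted p = 0.715). Tnf differed by -0.10 (adjusted p = 0.795) and Il1b by 0.03 (adjusted p = 0.946). Neutrophil markers lay lower in 3day nt, between -0.55 and 0.52, than in PBS, between 0.59 and 2.68. Of the 79 pathway genes, 10 were called higher and 15 lower in PBS, beside 17.4% and 16.5% of all genes. Quantile normalization gave 16 higher and 9 lower, and 0 were called with the muscle covariate or without the muscle-high libraries. Il18r1 differed by -1.51 (adjusted p = 0.00992), Il11ra1 by -1.71 (adjusted p = 0.0161) and Ptgds by 1.87 (adjusted p = 0.0133), and with the covariate their adjusted p-values were 0.115, 0.245 and 0.163.

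T11 has 1 sample, so its values have no replicate check and were not tested. It lay outside the range of 2208L for 5 of the 10 members, above it for Il1b, Il6, Il18 and Ptgs2 and below it for Il1rn, where 57.5% of all genes lay outside that range. Beside 2151R it lay outside for 8 members, above for Il1b, Il6, Il18, Tnf and Lif and below for Il1rn, Ptgs2 and Ptges, where 70.7% of all genes did. Il6 was 3.33 above the 2208L mean and 2.55 above the 2151R mean. Ptges differed from the 2151R mean by -4.19 and lay at the level of the highest 2208L tumours. T11 was the one sample with Ptgs2 above 1 and Ptges below 0.

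The genes with the most similar profiles over the 15 samples were found by the root mean square difference after each gene was centred on its mean. For Ptges these were Ism1 (0.57), Rapgef3 (0.67) and G930009F23Rik (0.77), against a median over all genes of 2.17. For Ptgs2 they were Slc9a5 (0.43), Ms4a14 (0.43) and Inhba (0.46), against 1.73. For Il6 the nearest were Hoxd4 at 0.76, Gm8113 at 0.78 and mt-Nd6 at 0.83, against 1.65. For Il33 the values were 0.69 for Ablim1, 0.76 for Rasgrp2 and 0.78 for Pdzd2, against 1.53.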

How the data were processed

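The deposited table gives log2 expression of 17271 genes in 15 samples, without missing values. The submitters' processing notes name STAR, Salmon and mm10, without roles or versions. Models follow the sample titles, since the series text shortens 2151R and 2225L by a digit. The table's name is the source for the log2 scale and the median centring by the authors. The median over these 15 samples was exactly 0 for 1124 genes only, and the sample set used for centring is not stated. The offset before the logarithm is not stated, so differences are given in log2 units. The table holds no counts, so depth is unknown and precision rests on the spread between samples.

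Comparisons were made in limma 3.58.1 (R 4.3.3), with lmFit and eBayes without trend, over all genes, with Benjamini-Hochberg adjustment and calls at an adjusted p under 0.05. Model comparisons used 1 fit of all 15 samples, and the subset comparison a fit of its 7 samples. The model fit shares 1 spread over all groups, so differences between the 2208L subsets enter the p-values of every model comparison. With the subsets as groups of their own, 2225L minus 2208L PBS had 8289 genes called, instead of 5687 against all of 2208L. The members called stayed at 1 higher and 5 lower. The fit was also run on simulated data with independent noise and few changed genes. Many genes differ in the real comparisons, so that run does not check the calls made here. Marker lists are given as the mean of a list after each gene was centred on its own mean over the 15 samples. The genes, the lists and the tests were chosen with earlier results of these data known. Named pathway genes are the 2 called genes of a list with the largest absolute difference in a comparison. Similar profiles were sought for the 4 members with the largest SD. Cxcr2 as a marker and the promoters shown were picked after the values were seen. Alternatives covered scaling, eBayes settings, sample weights, genes and samples left out, covariates, comparison groups and exact permutation tests. Positions and promoter sequences are from RefSeq GRCm38.p6, in which all 10 symbols matched.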

Additional observations from a re-analysis of the deposited data

Results flagged for a closer look

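Among 30 combinations of a member with a group of 4 to 8 samples, Dixon's outlier test flagged 2 with a sample far from the others. Chance alone gives about 1.5 of 30. The groups were 2151R, 2208L and 2208L PBS, and the PBS tumours are part of 2208L, so these tests overlap. Il6 stood at 1.73 in 2151R replicate 2, while the other 3 tumours of 2151R lay between -0.10 and 0.00. The title of replicate 2 carries a code that the labels do not explain. Replicate 2 was also the highest of 2151R for Il1b, Il1rn, Il18, Il33 and Tnf, but not for Il1a, Lif, Ptgs2 or Ptges. Ptgs2 stood at -2.24 in 2208L replicate 1, the sample named ROSEN, while the other 7 tumours of 2208L lay between -0.33 and 0.83.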

How the results depend on the processing

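No paired analysis was possible because the labels link no samples across groups. No sample title holds a replicate number, and the replicate numbers used here follow the order of the samples within each model. In 2151R minus 2208L, genes called numbered 8434, and 5151 when a difference of at least 1 log2 unit was also asked. Sample weights gave 2158 instead of 5687 in 2225L minus 2208L, 5252 instead of 8398 in 2225L minus 2151R, and 11692 instead of 5864 between the 2208L subsets. In the subsets, the 1 log2 minimum gave 2208, the muscle covariate 110, leaving out the libraries high in muscle genes 98, and leaving out 1 sample 2379 (2208L replicate 8) to 6800 (2208L replicate 5). Members called higher in 2225L minus 2208L became 2 with the library prefix as a covariate and 1 to 2 with 1 sample left out, and those called lower 3 to 5. In 2225L minus 2151R, members called higher became 0 with sample weights, without the muscle-high libraries and with only these models fitted, and 0 to 2 with 1 sample left out. Between the subsets, 1 member was higher with quantile normalization and with sample weights, and 0 to 1 with 1 sample left out. There 3 were lower with sample weights, 0 with the muscle covariate and without the muscle-high libraries, and 0 to 2 with 1 sample left out.

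The changes of sign all concerned members not called in the comparison. Il6 in 2151R was -0.84 against 3day nt alone. In 2225L minus 2208L, Il6 turned to 0.0070 with quantile normalization, 0.061 with sample weights, 0.017 with the muscle covariate, 0.31 without the muscle-high libraries, 0.35 against PBS alone and 0.68 with the prefix covariate, where Tnf turned to 0.16. Il18 was -0.52 against 3day nt alone. With 1 sample left out, Il6 ran from -1.89 to 1.24, Il33 from -0.44 to 4.68 and Tnf from -0.47 to 0.22 in 2225L minus 2208L, and Il6 from -2.67 to 0.46 and Il33 from -1.05 to 4.07 in 2225L minus 2151R. Between the subsets, Il33 was 0.015 with sample weights and 0.020 with the muscle covariate, Lif 0.019 with quantile normalization and Ptges 0.11 without the muscle-high libraries. There, leaving out 1 sample gave -0.10 to 0.30 for Il1b, -0.62 to 0.12 for Il33, -0.42 to 0.037 for Ptges and -0.25 to 0.064 for Tnf. The causes were not tested. Two-sided exact permutation tests of single members cannot go below 0.133 in 2225L minus 2151R or 0.0571 between the subsets. In 2225L minus 2208L the exact p of Ptgs2 was 0.0889.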

Other observations

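The difference between Il1b and Il1rn within a sample, a balance of ligand and antagonist computed after the values were seen, ran from -1.31 to -0.63 in 2151R and from -1.18 to 0.42 in 2208L. It was 0.04 and 0.56 in 2225L and 1.57 in T11, the highest of the 15 samples. Since each gene is centred on its own reference, only differences between samples can be read from it. Ptges minus Hpgd, the gene of the enzyme that begins prostaglandin breakdown, ran from 0.64 to 2.45 in 2151R and from -2.96 to -0.14 in 2208L, and was -0.80 and 1.74 in 2225L and -3.13 in T11. Ptgs2 minus Ptgs1, the constitutive cyclooxygenase, ran from 1.87 to 3.10 in 2151R, from -3.36 to -1.14 in 2225L and from -1.95 to 0.98 in 2208L, and was 0.40 in T11.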
